A study of Mus musculus with 40 samples.

Results

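The genes described here are 10 members of the Serpina family of the mouse: Serpina1a, Serpina1b, Serpina1c, Serpina1d, Serpina1e, Serpina3k, Serpina3m, Serpina3n, Serpina6 and Serpina4-ps1. They were given by name and stand among 55359 genes in the count files and 15373 that had enough reads to be tested. All 10 were tested. Their RNA was counted in the livers of 40 male C57BL/6 mice, each 1 library, that received sesame oil by gavage, alone (vehicle) or with the tetrachlorinated dioxin TCDD, which binds and activates the aryl hydrocarbon receptor, AhR. Dosing was repeated every 4 days over 28 days. The 7 doses of TCDD ran from 30, 10, 3 and 1 μg/kg down to 0.3, 0.1 and 0.03 μg/kg, with 5 mice in each of the 8 groups, and every group shared the same oil, strain and sex. The mice were 30 days old at the start and 58 days old at the end per the labels. The question was how the level of each Serpina transcript changed with dose, and whether near-identical copies changed alike.

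Serpins are proteins that most often inhibit serine proteases. The protease cuts an exposed reactive centre loop of the serpin and is then trapped on it, so the residue just before the cut bond sets which protease is caught. Hepatocytes secrete the Serpina1 proteins (alpha-1-antitrypsin, which protects tissue from neutrophil elastase), relatives of alpha-1-antichymotrypsin (the Serpina3 genes) and Serpina6 (corticosteroid-binding globulin, which carries glucocorticoids in plasma and is not an inhibitor). Humans have a single alpha-1-antitrypsin gene, whereas the mouse has several copies side by side on chromosome 12, and likewise for Serpina3. Serpina4-ps1 is annotated as an unprocessed pseudogene.

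The Serpina1 copies are so alike that short reads are shared between them. Their 10 pairs were 96.3% to 98.5% identical over 1239 coding bases, against 82.7% to 91.1% for the 3 pairs of Serpina3 genes and 57.5% to 59.8% between a Serpina1 and a Serpina3 gene (GENCODE M21, GRCm38). The copies differed most in the stretch that encodes the reactive centre loop, where 22.7% of 66 positions varied, against 6.05% of the rest of the coding sequence. The stretch of each copy is shown because it encodes the loop that the protease cuts, although no function was measured. Capitals mark the positions at which the 5 copies differ, and codon 15, the last run of 3 capitals before the shared end, encodes the residue just before the cut bond.
Serpina1a: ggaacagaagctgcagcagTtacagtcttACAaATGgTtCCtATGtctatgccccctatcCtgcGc
Serpina1b: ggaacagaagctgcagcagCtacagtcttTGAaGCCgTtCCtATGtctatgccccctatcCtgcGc
Serpina1c: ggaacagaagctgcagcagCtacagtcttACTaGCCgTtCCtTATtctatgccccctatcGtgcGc
Serpina1d: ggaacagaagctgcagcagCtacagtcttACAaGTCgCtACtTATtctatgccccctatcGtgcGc
Serpina1e: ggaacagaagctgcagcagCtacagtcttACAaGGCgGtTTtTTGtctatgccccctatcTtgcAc
These 66 bases lie on the minus strand at chr12:103853765-103853830 (Serpina1a), chr12:103728332-103728397 (Serpina1b), chr12:103895102-103895167 (Serpina1c), chr12:103763770-103763835 (Serpina1d) and chr12:103947108-103947173 (Serpina1e), all in coding exons. Serpina1a and Serpina1b carried the same codon 15, Serpina1c and Serpina1d shared another, and Serpina1e had a codon of its own.

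The promoters of the copies were compared over the stretch that aligned without gaps. RefSeq promoters (GRCm38.p6, 250 bases before to 50 after each start) were held for 6 of the 10 genes, the Serpina1 copies and Serpina3n. In the longest block before the start that aligned without gaps in the 5 copies, 10 of 121 positions varied, again in capitals. The blocks are printed because these 5 genes fell to very different extents.
Serpina1a: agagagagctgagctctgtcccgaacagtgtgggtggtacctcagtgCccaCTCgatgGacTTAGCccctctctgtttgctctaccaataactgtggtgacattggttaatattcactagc
Serpina1b: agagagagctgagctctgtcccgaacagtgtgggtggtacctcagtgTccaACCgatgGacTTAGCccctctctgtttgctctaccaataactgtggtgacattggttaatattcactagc
Serpina1c: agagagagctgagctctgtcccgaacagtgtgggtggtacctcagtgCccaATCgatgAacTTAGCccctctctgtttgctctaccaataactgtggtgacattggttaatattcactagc
Serpina1d: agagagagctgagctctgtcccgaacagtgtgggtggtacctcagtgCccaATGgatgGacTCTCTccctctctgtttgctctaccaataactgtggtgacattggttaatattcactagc
Serpina1e: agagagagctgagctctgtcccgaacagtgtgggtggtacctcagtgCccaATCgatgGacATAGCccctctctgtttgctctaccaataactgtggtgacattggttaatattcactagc
The blocks lie on the minus strand at chr12:103863625-103863745, chr12:103738200-103738320, chr12:103904962-103905082, chr12:103773634-103773754 and chr12:103956960-103957080, in the same order. Serpina1e differed from Serpina1a and from Serpina1c at 2 positions each, whereas Serpina1d differed from the others at 6 or 7. The letters GTTAAT, a half-site of the hepatocyte factor HNF1, stood once in each of the 5 Serpina1 promoters, read on both strands, at offsets of -21, -26, -27, -16 and -78 from the annotated starts of Serpina1a to Serpina1e in order, and in 7.10% of all 32851 promoters. The core of the dioxin response element to which AhR binds, GCGTG, was in none of the 6 promoters and in 32.4% of all, and the STAT letters TTCNNNGAA were in none of the 6 and in 8.30% of all. GTTAAT lies in a part of the block that is the same in all 5 copies. Matches in such near copies are not separate observations, so these counts cannot be read as an excess or a lack beside all promoters. The matches describe letters in a short window and no binding was measured.

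Library depth was even, at 15496128 to 20967093 gene counts per library, and reads that mapped to several places (5.24% to 7.43%) were not counted. Of the windows of 150 bases in its transcript, 40.3% were found in no other gene for Serpina1c, 49.5% for Serpina1a, 76.7% for Serpina1d, 83.6% for Serpina1b and 92.4% for Serpina1e, so the copies lost unequal parts of their reads. At least 99.7% were unique for the other 5 genes, although Serpina3k and Serpina3m share 60 exon bases on the same strand. Serpina1c also shared 429 of its 1361 exon bases with B430119L08Rik, a gene on the opposite strand. The libraries showed no strand preference (50.0% to 50.3% of counts fell on the first strand setting), and unstranded counting leaves out reads that touch 2 genes. For Serpina1c the unstranded column held 3.65% to 9.26% of the reads that the 2 strand columns held together. For the other 9 genes it held at least 99.8% of them in libraries with over 100 counts. Levels below are CPM, counts scaled to the same library size after TMM scaling (trimmed mean of M-values), from the unstranded column unless stated, and the fold of Serpina1c is given from both sources.

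In vehicle liver the most abundant member per length was Serpina3k, a contrapsin-like inhibitor, at 4834 ± 626 CPM per kilobase of exon (SD, n = 5). It was followed by Serpina1e at 2851 ± 1827, Serpina1d at 2716 ± 375, Serpina1b at 2441 ± 315 and Serpina1a at 1374 ± 177 CPM per kilobase. Serpina1c stood at 334 ± 66.4 CPM per kilobase from the unstranded column but at 4624 from the 2 strand columns summed, where its reads and those of the gene on the other strand cannot be told apart. Serpina3n (138 ± 26.8), Serpina3m (134 ± 23.2), Serpina6 (130 ± 31.4) and Serpina4-ps1 (69.1 ± 46.5) followed. The ranges of neighbours in this order overlapped, except between Serpina1b and Serpina1a, between Serpina1a and Serpina1c and between Serpina1c and Serpina3n. Levels were divided by the full exon length and not corrected for reads lost to shared sequence. As 49.5% of windows were unique in Serpina1a and 92.4% in Serpina1e, the order of the Serpina1 copies and the gaps between them are of counted reads. They do not settle the order of RNA abundance.

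The vehicle mice varied most in Serpina1e and Serpina4-ps1, and all 10 members varied more than the median gene. The coefficient of variation among the 5 vehicle mice was 12.9% to 24.2% for 8 members, beside a median of 11.6% over the 7751 genes with at least 10 CPM in vehicle. For Serpina1e it was 64.1% and for Serpina4-ps1 67.3%, above 99.6% of those genes in both cases. The same 2 vehicle mice, replicates 3 and 4, had the highest levels of both genes.

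A gene was called when its adjusted p was under 0.05 and its fold change from vehicle at least 1.5. Of the 10 genes 8 were first called at 10 or 30 μg/kg. None of the 10 was called at 0.03, 0.1 or 0.3 μg/kg, where 0.0195%, 0.0976% and 0.468% of all tested genes were. At an unadjusted p under 0.05 in edgeR there were 0, 0 and 1 of the 10, the last being Serpina6. Of all 15373 tested genes, 393, 665 and 1127 were under it. DESeq2 also called none of the 10 at these doses, and 11, 24 and 91 of 55359 genes. At 1 μg/kg 1 of 10 was called (2.78% of all genes), at 3 μg/kg 2 (6.75%), at 10 μg/kg 6 (21.8%) and at 30 μg/kg all 10 (42.1%). The 1 member that rose was Serpina6, called higher at 1, 3, 10 and 30 μg/kg, where 2.15%, 4.53%, 13.6% and 23.2% of all genes were. The members called lower numbered 1 at 3 μg/kg, 5 at 10 μg/kg and 9 at 30 μg/kg, beside 2.22%, 8.13% and 18.9% of all genes. Between 10 and 30 μg/kg 9 of 10 were called, all lower (21.1% of all genes were called and 10.6% were lower), and Serpina4-ps1 was not (adjusted p = 0.111 by edgeR, 0.000464 by DESeq2, which called it). Serpina3m was called from 3 μg/kg, Serpina1c, Serpina1e, Serpina3k and Serpina4-ps1 from 10 μg/kg, and Serpina1a, Serpina1b, Serpina1d and Serpina3n at 30 μg/kg alone. The median log2 fold change of the 10 genes was -0.74 at 10 μg/kg and -2.32 at 30 μg/kg, beside 0.00898 and 0.0292 over all tested genes. The dosed and vehicle mice did not overlap in 1 member at 0.3, 1 and 3 μg/kg each (2.47%, 7.45% and 9.72% of all genes), in 5 at 10 μg/kg (23%) and in 9 at 30 μg/kg (37.6%). The mice at 30 μg/kg did not overlap those at 10 μg/kg in 5 members (11.9%).

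**Figure D1:**
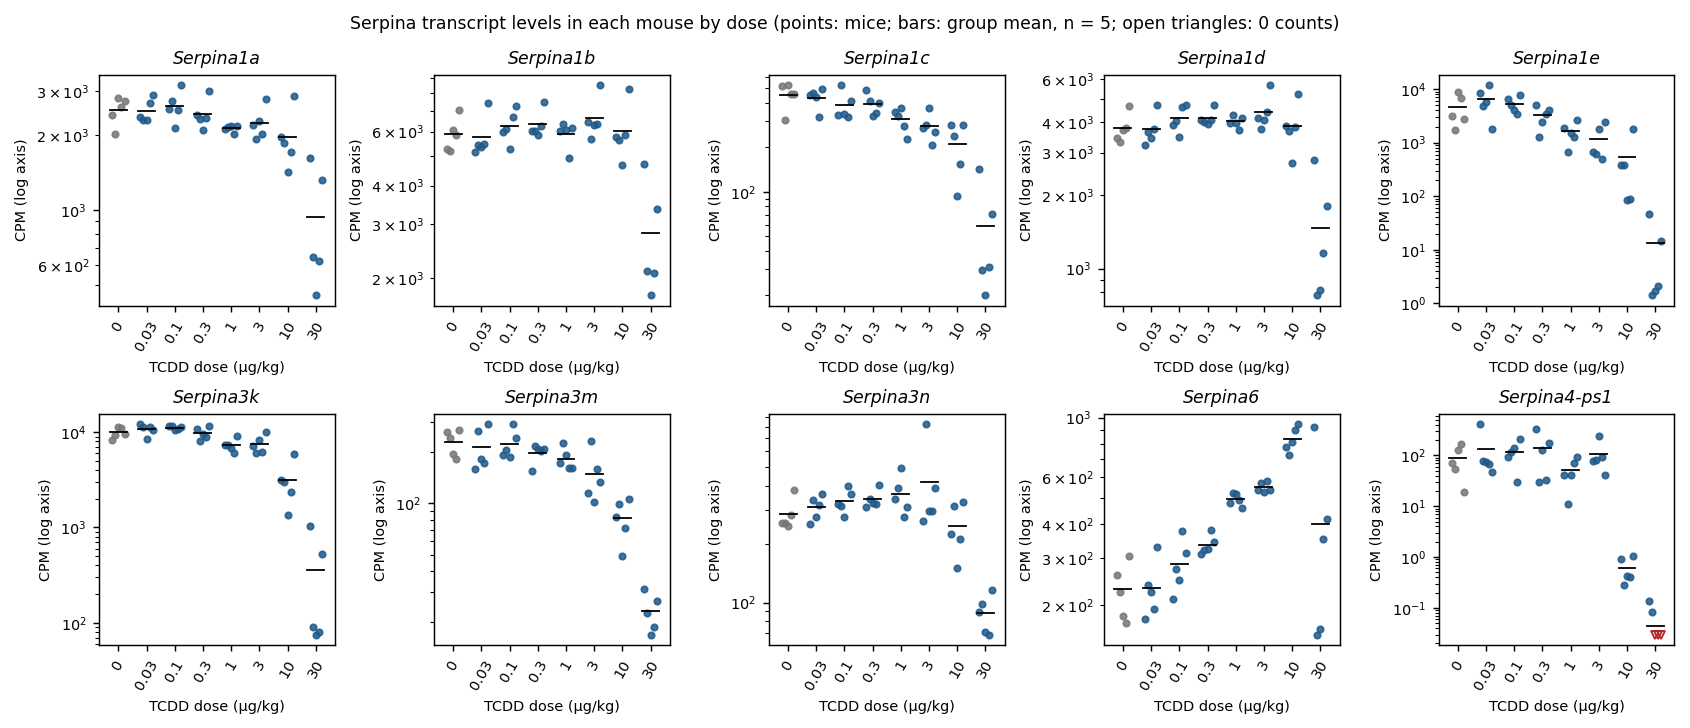
Levels of the 10 Serpina transcripts in CPM (vertical log axes, each panel with its own scale) in each of 40 mice, against TCDD dose in μg/kg (0 is vehicle). Points are mice, bars are group means (n = 5) and open triangles are libraries with 0 counts; Serpina6 rose up to 10 μg/kg while the other 9 members were lowest at 30 μg/kg.

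In bulk liver, fewer cells of a type and less RNA per cell cannot be told apart. Of 7 hepatocyte markers (Apoa1, Cps1, Ttr and Alb among them) 5 fell and 0 rose at 30 μg/kg, and their summed level ranged from 97629 to 119451 CPM in vehicle and from 29166 to 59456 CPM at 30 μg/kg. All 6 macrophage markers rose, with a summed 156 to 209 CPM in vehicle and 517 to 1146 CPM at 30 μg/kg. Stellate cell and fibroblast markers rose in 6 of 7 (151 to 259 CPM against 506 to 1092 CPM). Of 5 cholangiocyte markers 4 rose and 1 fell, while 3 of 5 endothelial and 5 of 5 lymphocyte markers rose. At 30 μg/kg 23.2% of all tested genes were called higher and 18.9% lower. Neutrophil markers summed to 2.07 to 3.83 CPM in vehicle and 16.2 to 53.1 CPM at 30 μg/kg, where 4 of the 4 tested rose, while Ly6g and Mpo were at 0 in every vehicle library. The part of these shifts in the changes of the Serpina genes was not tested.

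Serpina1e fell furthest among the Serpina1 copies. Its 5 vehicle mice stood at 3151, 1740, 8714, 6683 and 2765 CPM, and its 5 mice at 10 μg/kg at 389, 382, 83.8, 87.0 and 1764 CPM. Those at 30 μg/kg stood at 46.6, 1.41, 1.72, 2.06 and 14.3 CPM. All 5 mice at 30 μg/kg were below every mouse of every other group, while at 10 μg/kg replicate 5 reached the lowest vehicle mouse and the other 4 lay well under it. The log2 fold change was -3.09 ± 0.77 (SE) at 10 μg/kg (8.52-fold lower, adjusted p = 0.00177) and -8.45 ± 0.99 at 30 μg/kg (351-fold lower, adjusted p = 2.56e-09). The drop from 10 to 30 μg/kg alone was -5.36 ± 0.86 (adjusted p = 6.79e-06). Without replicate 5 of the 10 μg/kg group, the value at 10 μg/kg was -4.29 and the drop to 30 μg/kg -4.16, both still called. The sample titles carry a number, in runs of 1 to 27 and 28 to 54, and in a fit of numbers 28 to 54 alone the value at 10 μg/kg was -2.86 and was not called (adjusted p = 0.0766). Values at lower doses did not pass the test, with log2 fold changes of -0.50 ± 0.71 at 0.3, -1.51 ± 0.73 at 1 and -1.96 ± 0.74 at 3 μg/kg (adjusted p = 0.952, 0.313 and 0.0852), although all 5 mice at 1 and at 3 μg/kg were below the vehicle mean. When edgeR compared the 2 groups alone, the values at 1 and 3 μg/kg were called (adjusted p = 0.0343 and 0.0199).

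Serpina1c fell next. The vehicle mice stood at 523, 304, 527, 462 and 458 CPM, those at 10 μg/kg at 284, 237, 93.1, 155 and 281 CPM, and those at 30 μg/kg at 142, 29.5, 20.0, 31.2 and 70.3 CPM. Neither treated group overlapped vehicle. TCDD reduced Serpina1c by a log2 fold change of -1.11 ± 0.32 at 10 μg/kg (adjusted p = 0.00582) and -2.96 ± 0.34 at 30 μg/kg (7.77-fold lower, adjusted p = 1.49e-09). The first was not called within title numbers 1 to 27 (-0.81, adjusted p = 0.233), and the second was -3.59 without replicate 1 at 30 μg/kg. At 3 μg/kg Serpina1c was called with the 2 groups compared alone (-0.71, adjusted p = 0.0106). With the 2 strand columns summed, where the vehicle mice held 6293 ± 782 CPM (SD, n = 5) and the mice at 30 μg/kg 770 ± 567 CPM, the log2 fold changes were -1.04 and -3.03. Both folds were called from these columns too (edgeR, adjusted p = 0.00164 and 5.91e-12).

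Serpina1a, Serpina1b and Serpina1d were called at 30 μg/kg alone. Serpina1b, the most highly counted of the copies in the unstranded column, stood at 5260, 5197, 6073, 5867 and 7075 CPM in vehicle and at 5742, 5651, 4660, 5834 and 8234 CPM at 10 μg/kg. Its mice at 30 μg/kg stood at 4691, 2105, 1755, 2081 and 3352 CPM, all below the lowest vehicle mouse. The log2 fold change of Serpina1b was 0.03 ± 0.18 at 10 μg/kg (adjusted p = 0.918) and -1.08 ± 0.18 at 30 μg/kg (2.11-fold lower, adjusted p = 3.81e-06), the smallest fall of the 9 members that fell. Serpina1d stood at 3428, 3327, 3727, 3798 and 4652 CPM in vehicle and at 2798, 777, 818, 1155 and 1808 CPM at 30 μg/kg, without overlap. Its log2 fold change was 0.03 ± 0.21 at 10 μg/kg and -1.36 ± 0.21 at 30 μg/kg (2.57-fold lower, adjusted p = 9.67e-07). Serpina1a was at -0.36 ± 0.21 at 10 μg/kg (adjusted p = 0.198) and fell by 1.43 ± 0.21 on the log2 scale at 30 μg/kg (adjusted p = 4.12e-07), from 2016 to 2831 CPM in vehicle to 453 to 1621 CPM. For all 3 the step from 10 to 30 μg/kg was itself called, with log2 fold changes of -1.07 (Serpina1a), -1.11 (Serpina1b) and -1.39 (Serpina1d).

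The unequal falls changed the makeup of the Serpina1 RNA. In vehicle, Serpina1b made up 35.0% ± 5.91 of the summed Serpina1 counts, Serpina1e 25.0% ± 11.6, Serpina1d 22.5% ± 4.14, Serpina1a 14.8% ± 1.57 and Serpina1c 2.67% ± 0.494 (SD, n = 5). By 30 μg/kg the share of Serpina1b was 54.4% ± 3.89 and that of Serpina1e 0.173% ± 0.197. In each mouse at 10 and at 30 μg/kg the share of Serpina1e was below, and that of Serpina1b above, all 5 vehicle mice (exact permutation test, 2-sided, adjusted over 10 tests, p = 0.0113 for both genes at both doses, n = 5). The share of Serpina1d was higher at 10 μg/kg (30.9%, adjusted p = 0.0113 by the exact test, n = 5), and at 30 μg/kg it was 27.2% ± 3.30 and overlapped vehicle (exact adjusted p = 0.106). Counts from the 2 strand columns gave another picture of the makeup, with Serpina1c at 27.6% ± 2.47 in vehicle and 11.9% ± 2.39 at 30 μg/kg, and in them the shares of Serpina1a and Serpina1d were also higher at 30 μg/kg (exact adjusted p = 0.00794 for each, n = 5). The fall of the Serpina1e share and the rise of the Serpina1b share passed the exact test in both sources, which hold nearly the same reads for these 2 genes. Shares are parts of 1 whole, so a fall in 1 copy raises the shares of the others. At 10 μg/kg the log2 fold change of Serpina1b itself was 0.03.

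**Figure D2:**
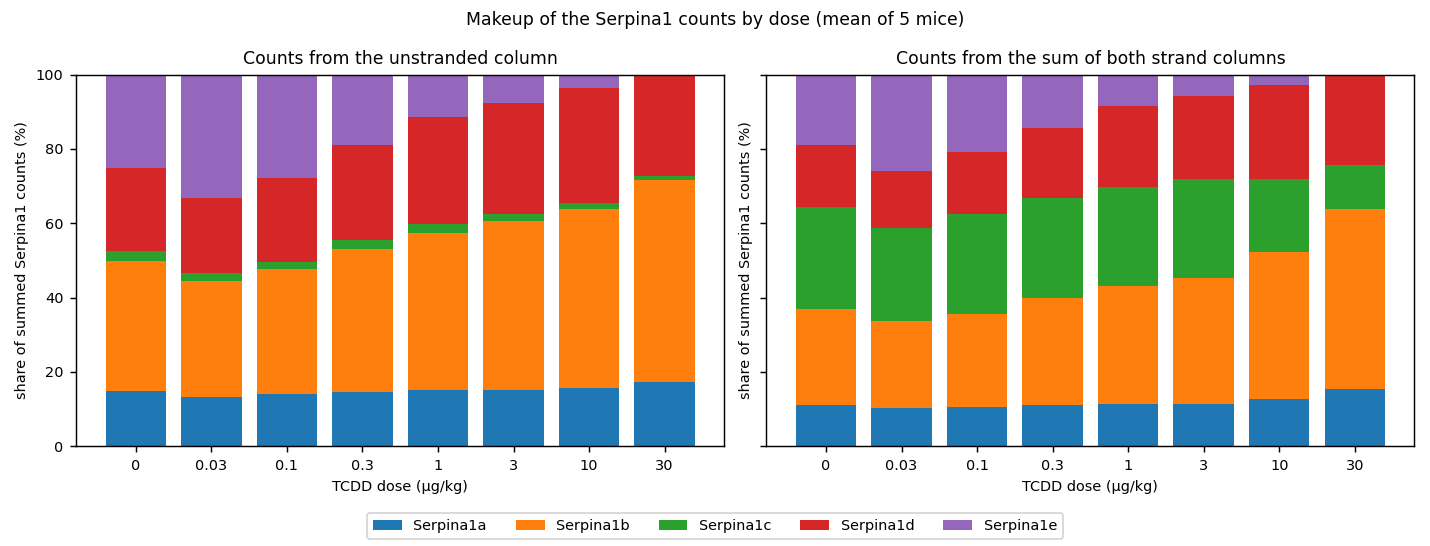
Mean share (%) of each Serpina1 copy in the summed Serpina1 counts of 5 mice, by TCDD dose in μg/kg, from the unstranded column (left) and from the 2 strand columns summed (right). The Serpina1e share shrank from 25.0% to 0.173% on the left and from 18.8% to 0.151% on the right, while Serpina1c took 2.67% of vehicle counts on the left and 27.6% on the right.

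As 1 feature, the Serpina1 sum, the 5 copies held 1.60% ± 0.321 of all gene counts in vehicle liver (SD, n = 5) and 0.671% ± 0.295 at 30 μg/kg. These counts are from the unstranded column, which left out most Serpina1c reads. The highest mouse at 30 μg/kg, at 1.13%, was below the lowest vehicle mouse. The exact permutation test gave an adjusted p of 0.0556 over the 7 doses, because 5 mice against 5 can give no p under 0.00794, so this share did not pass after adjustment. In the edgeR fit with the copies summed, the log2 fold change was -0.22 ± 0.21 at 3, -0.45 ± 0.21 at 10 and -1.71 ± 0.22 at 30 μg/kg (adjusted p = 0.587, 0.100 and 1.70e-08). Thus at 10 μg/kg the sum was not called, while 2 of its 5 parts, Serpina1c and Serpina1e, were.

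Serpina3k, the most abundant member per length in vehicle, fell at 10 and 30 μg/kg. Its vehicle mice stood at 8192, 9428, 11332, 11088 and 9682 CPM, those at 10 μg/kg at 3164, 3017, 1366, 2329 and 5860 CPM, and those at 30 μg/kg at 1038, 90.6, 75.3, 79.2 and 522 CPM. The 3 groups did not overlap, and at 30 μg/kg replicates 1 and 5 stood well above the other 3. The log2 fold change was -1.66 ± 0.43 at 10 μg/kg (3.16-fold lower, adjusted p = 0.00248) and -4.78 ± 0.49 at 30 μg/kg (27.6-fold lower, adjusted p = 1.18e-10). At 3 μg/kg it was -0.40 ± 0.42 (adjusted p = 0.631). The call at 10 μg/kg was lost within title numbers 1 to 27 (-1.66, adjusted p = 0.0665) and 28 to 54 (-1.70, adjusted p = 0.0648).

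Serpina3m, which was 91.1% identical to Serpina3k in coding sequence, was called lower from a lower dose, and its mice at 30 μg/kg lay closer together. It stood at 264, 241, 194, 182 and 269 CPM in vehicle, at 83.7, 99.2, 49.3, 71.8 and 107 CPM at 10 μg/kg and at 31.3, 22.7, 17.0, 18.8 and 26.7 CPM at 30 μg/kg. Each of these groups lay wholly below the one before. It had a log2 fold change of -1.49 ± 0.21 at 10 μg/kg (2.80-fold lower, adjusted p = 5.54e-07) and -3.31 ± 0.22 at 30 μg/kg (9.89-fold lower, adjusted p = 3.52e-15). At 3 μg/kg it was -0.63 ± 0.20 (adjusted p = 0.0413), a call that was lost without vehicle replicate 1, 2 or 5 (adjusted p = 0.102, 0.0744 and 0.102) or without replicate 1, 3, 4 or 5 of the dose (adjusted p = 0.111, 0.127, 0.0600 and 0.0969). It was also lost with the 2 groups compared alone (adjusted p = 0.0573), with no filter on low counts (0.0514), from the strand-specific column (0.0525) and on scaling to total counts, where the fold was under 1.5 (-0.55, adjusted p = 0.0446). In the 2 genes the mice at 30 μg/kg kept the same 2 highest animals, replicates 1 and 5.

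Serpina3n, known as an acute-phase gene, was called lower at 30 μg/kg. It stood at 256, 258, 248, 284 and 381 CPM in vehicle and at 265, 828, 298, 297 and 390 CPM at 3 μg/kg, where replicate 2 stood alone above the rest. Its mice at 30 μg/kg stood at 89.5, 97.8, 70.9, 68.4 and 116 CPM, well below vehicle. It had a log2 fold change of 0.54 ± 0.22 at 3 μg/kg (adjusted p = 0.126), which became 0.13 without replicate 2, and 0.63 and called higher on scaling to total counts (adjusted p = 0.0382), then -0.21 ± 0.22 at 10 μg/kg (adjusted p = 0.515) and -1.69 ± 0.23 at 30 μg/kg (3.22-fold lower, adjusted p = 6.51e-08). With replicates 5 and 2 highest at 30 μg/kg, Serpina3n was also the 1 member in which replicate 1 was not the highest mouse of that group.

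Serpina6 rose with dose. Its mice stood at 259, 223, 183, 172 and 306 CPM in vehicle, at 481, 523, 518, 494 and 460 CPM at 1 μg/kg, and at 778, 725, 809, 901 and 943 CPM at 10 μg/kg. From 0.3 to 10 μg/kg all mice lay above all vehicle mice, and at 1, 3 and 10 μg/kg each group lay wholly above the next lower dose. The log2 fold change was 0.56 ± 0.26 at 0.3 μg/kg (adjusted p = 0.651), 1.12 ± 0.27 at 1 μg/kg (2.17-fold, adjusted p = 0.00935), 1.27 ± 0.27 at 3 μg/kg (2.41-fold, adjusted p = 0.00119) and 1.86 ± 0.27 at 10 μg/kg (3.64-fold, adjusted p = 1.13e-06). The group was also tight, with a coefficient of variation of 4.21% at 3 μg/kg and 10.8% at 10 μg/kg.

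At 30 μg/kg the Serpina6 mice came apart, at 923, 155, 163, 352 and 417 CPM. Replicate 1 stood at the 10 μg/kg level, replicates 4 and 5 stood above the vehicle range, and replicates 2 and 3 stood below every vehicle mouse. The group was called higher than vehicle (log2 fold change 0.81 ± 0.26, adjusted p = 0.00861) and lower than 10 μg/kg (-1.05 ± 0.26, adjusted p = 0.00213), but the first of these rested on replicate 1, without which it was 0.25 (adjusted p = 0.304). With libraries of title numbers 28 to 54 alone it was 0.35 (adjusted p = 0.400), and with numbers 1 to 27 alone 1.26 (adjusted p = 0.0260). With only the 2 groups in the fit, neither the difference from vehicle (0.80, adjusted p = 0.130) nor that from 10 μg/kg (-1.06, adjusted p = 0.0789) was called.

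Serpina4-ps1 dropped from its full range to almost 0 between 3 and 10 μg/kg. It stood at 71.7, 55.2, 130, 168 and 19.1 CPM in vehicle and at 77.8, 79.5, 243, 93.3 and 40.8 CPM at 3 μg/kg. At 10 μg/kg it stood at 0.912, 0.277, 0.417, 0.412 and 1.06 CPM, from 6 to 19 counts per library. The highest mouse at 10 μg/kg was far below the lowest of any lower dose. The log2 fold change was 0.26 ± 0.60 at 3 μg/kg (adjusted p = 0.847) and -7.17 ± 0.87 at 10 μg/kg (144-fold lower, adjusted p = 3.71e-08). At 30 μg/kg the libraries held 0 to 3 counts, at or under the floor of 3 counts per library, so the level was at least 713-fold lower than in vehicle (called by edgeR, adjusted p = 3.14e-10). The floor covers counting error only.

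**Figure D3:**
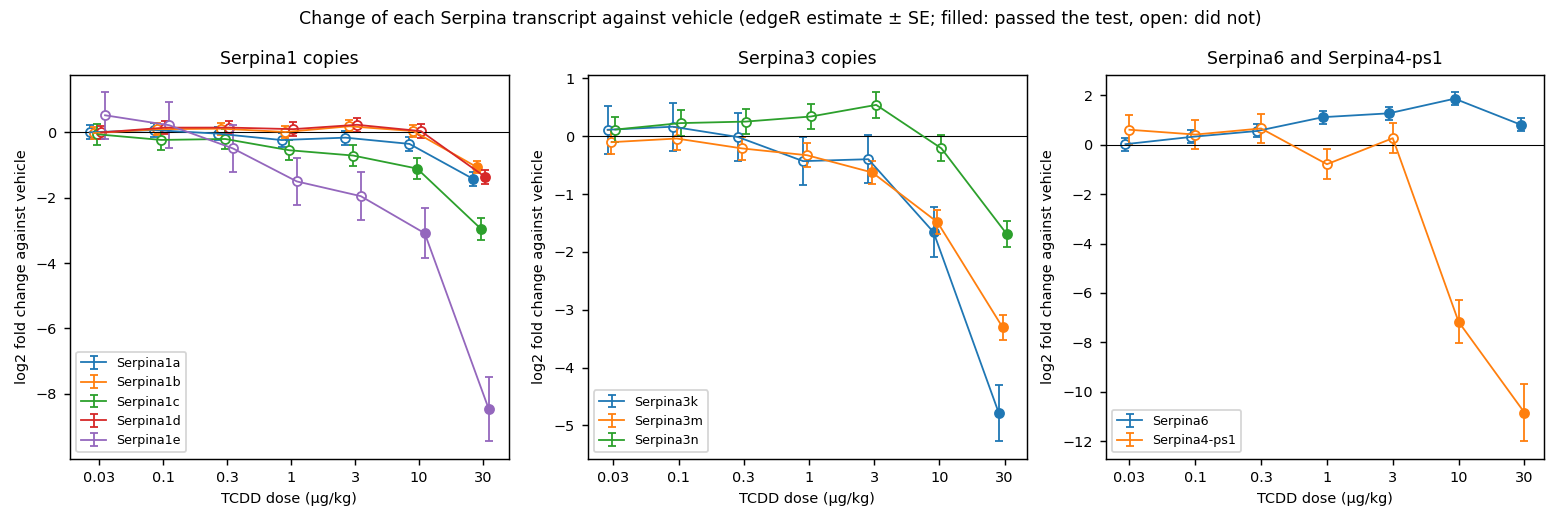
Log2 fold change against vehicle (vertical axis, edgeR estimate ± SE) of each Serpina transcript at 7 TCDD doses in μg/kg, with 5 mice per group; filled points passed the test and open points did not. Serpina1e, Serpina3k and Serpina4-ps1 reached -8.45, -4.78 and, as a fitted value below the detection floor, -10.84 at 30 μg/kg, while Serpina1b stood at 0.03 at 10 μg/kg.

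As a straight slope over the 8 ordered dose steps, 7 of the 10 members changed (57.7% of all tested genes did). Upward were 1 member and 31.5% of all genes, downward 6 members and 26.1%. Serpina1e had a slope of -0.81 ± 0.14 log2 units per step (adjusted p = 4.33e-06), Serpina4-ps1 of -0.60 ± 0.20 (adjusted p = 0.00868) and Serpina3k of -0.41 ± 0.09 (adjusted p = 0.000148). Serpina3m (-0.34), Serpina1c (-0.29) and Serpina1a (-0.14) also declined and Serpina6 rose (0.24 ± 0.04, adjusted p = 6.73e-07). Serpina1b, Serpina1d and Serpina3n, whose fold changes at 3 μg/kg were above 0 on the log2 scale, had slopes of -0.067, -0.083 and -0.11 with adjusted p of 0.0542, 0.0557 and 0.0555.

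The mice at 30 μg/kg were unequally affected, and in much the same order for most members. Replicate 1 had the highest level in 9 of the 10 genes, and replicates 1 and 5 were the 2 highest in 8. The 9 include Serpina4-ps1, whose 0 to 3 counts per library cannot rank the mice. How often replicate 1 was highest over all tested genes was not computed, so this order cannot be called particular to the Serpina genes. Relative to the vehicle mean, replicate 1 kept 79.6% of Serpina1b, 73.9% of Serpina1d, 31.2% of Serpina1c, 10.4% of Serpina3k and 1.01% of Serpina1e. Replicate 3 kept 29.8%, 21.6%, 4.40%, 0.757% and 0.0372% of the same genes. These 5 genes stood in the same order in both mice. Without replicate 1 the log2 fold changes at 30 μg/kg were -1.34 for Serpina1b, -3.59 for Serpina1c, -5.70 for Serpina3k and -9.90 for Serpina1e, and 9 of 10 members were called.

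**Figure D4:**
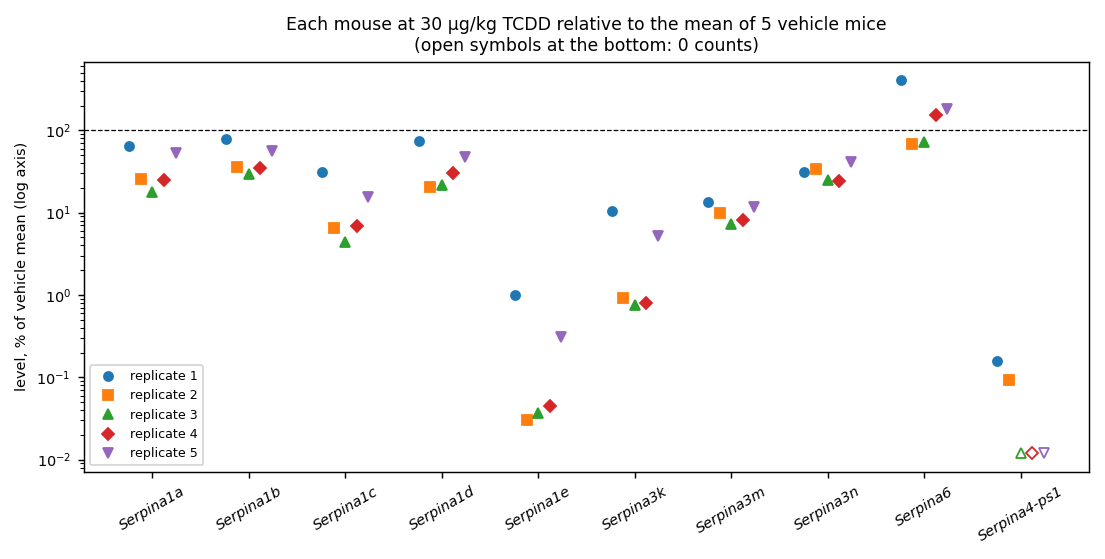
Level of each Serpina transcript in the 5 mice given 30 μg/kg TCDD as a percentage of the mean of 5 vehicle mice (vertical log axis; dashed line at 100%); symbols are mice and open symbols at the bottom are 0 counts. Replicate 1 is the highest mouse in 9 of 10 genes, among them Serpina4-ps1 with 0 to 3 counts per library. Serpina6 is the 1 gene with mice on both sides of the vehicle mean.

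The genes whose pattern over the 35 TCDD libraries was most like that of a member were found by the root mean square (RMS) difference of log2 CPM from the vehicle mean, among 7733 genes. For Serpina1a they were Proc, Kng1 and Mettl26 (RMS 0.157 to 0.168), for Serpina1b F12, Faah and Fah (0.136 to 0.144) and for Serpina1d Faah, Naprt and Fah (0.135 to 0.164). Each of these 9 matches was closer than the nearest other member, which was 0.180 away for Serpina1b and Serpina1d. The matches were picked from 7733 genes and the nearest member from 9. That comparison therefore cannot tell whether the copies are less alike than unrelated genes. For Serpina1e the nearest were Mup3, Elovl3 and Hao1 (0.772 to 1.08), and for Serpina3k Cyp4f14, Mug1 and Slc30a10 (0.361 to 0.475). For Serpina1c they were Haao, Azgp1 and Entpd8, for Serpina3m Fga, Vwce and Amdhd1, and for Serpina3n Serpina10, Qsox1 and Tfr2 (0.300 to 0.352 over these 9). Serpina6 was most like Tmem86b, Tert and Ces1b (0.322 to 0.401), which also stood higher at 10 than at 30 μg/kg. Serpina4-ps1 had no close match (Hsd3b5, Hao1 and Pitx3, 1.54 to 1.63).

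Serpina genes outside the 10 split in direction. Of 16 such genes 10 were tested, and at 30 μg/kg 4 rose and 5 fell. At that dose 23.2% of all tested genes were called higher and 18.9% lower, which also stands beside the list counts that follow. Serpina9 (fitted log2 fold change -6.72 ± 0.92, with a mean of 0.0185 CPM left), Serpina12 or vaspin (-5.38 ± 0.64) and Serpina7, the thyroxine-binding globulin (-4.45 ± 0.40), fell like most of the 10, and Serpina7 had fallen as far by 10 μg/kg (-4.51 ± 0.41). All 4 that rose were Serpina3 genes of under 10 CPM (Serpina3f, Serpina3g, Serpina3h and Serpina3i), with Serpina3i highest at 4.14 ± 0.85. The 6 not tested (Serpina1f, Serpina3a, Serpina3b, Serpina3j, Serpina5 and Serpina16) had 0 to 30 counts in vehicle and 30 μg/kg libraries. Serpina3f, Serpina3g and Serpina3h have close relatives among these genes, and how reads were split among them was not measured.

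Secreted serpins of other clades and protease inhibitors outside the serpins mostly fell with them. Of the 8 secreted serpins of other clades 7 fell and 1 rose at 30 μg/kg, with a median log2 fold change of -1.32 beside 0.03 for all genes. Serpinf1 (-2.87 ± 0.29), the antiplasmin Serpinf2 (-2.28 ± 0.26) and angiotensinogen, Agt (-2.05 ± 0.18), were among those that fell. Of 18 tested protease inhibitors outside the serpins 12 fell and 3 rose (median -1.60). Among them were Mug1 at -4.03 ± 0.43, Mug2 at -2.95 ± 0.33, Itih4 at -2.38 ± 0.27 and Spint1 at 5.71 ± 0.40. Among intracellular serpins 3 of 6 tested rose and 1 fell, beside 23.2% and 18.9% of all tested genes. Those called were Serpinb6a at 4.47 ± 0.21, Serpinb1a at -1.88 ± 0.39, the collagen chaperone Serpinh1 at 1.68 ± 0.19 and Serpinb6b at 0.77 ± 0.27.

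Proteases that such inhibitors meet were read as well. Of 9 tested at 30 μg/kg 7 fell and 1 rose (median -1.60), with Klk1b4 (-3.88 ± 0.44), plasma kallikrein Klkb1 (-3.06 ± 0.30) and plasminogen, Plg (6.51-fold lower), among those that fell and the macrophage elastase Mmp12 the 1 that rose (9.78 ± 0.68, from a mean of 0.0786 to 82.8 CPM). The neutrophil proteases Elane, Prtn3 and Ctsg were not tested and reached at most 15 counts at 30 μg/kg.

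**Figure D5:**
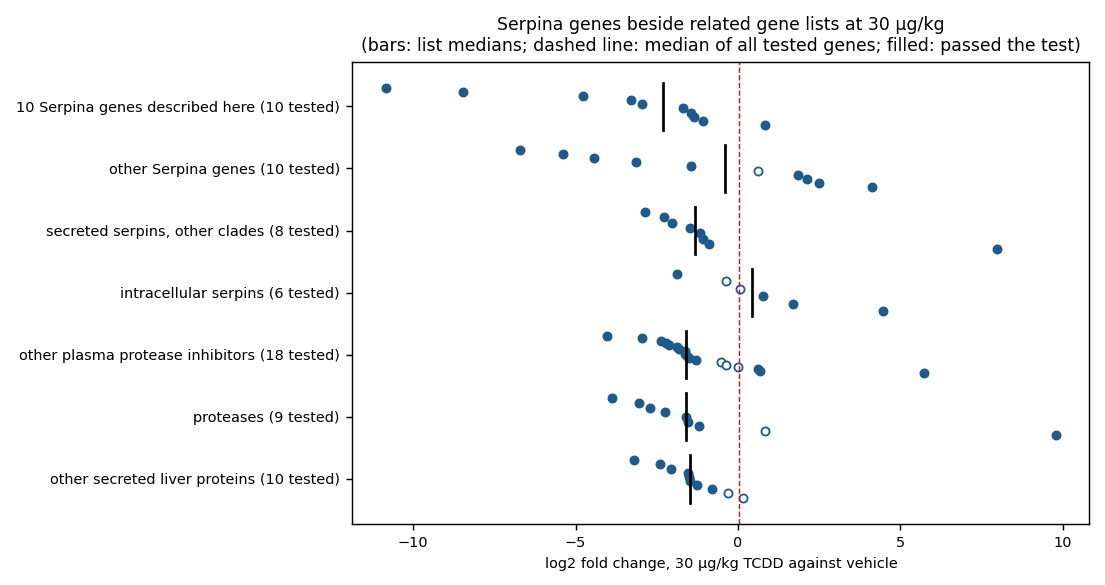
Log2 fold change at 30 μg/kg TCDD against vehicle (horizontal axis, n = 5 per group) for the 10 Serpina genes and 6 related lists; each point is a gene, filled where it passed the test, bars are list medians and the dashed line is the median of all tested genes, 0.03. The Serpina median is -2.32, that of secreted serpins of other clades -1.32 and that of the list labelled other plasma protease inhibitors -1.60.

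Genes that act around the Serpina proteins were read from lists of regulators, export factors and hormone handling. Of 19 hepatic transcription factors and cytokine signalling genes 10 fell and 3 rose at 30 μg/kg, with Onecut1 (-3.05 ± 0.77), the growth hormone receptor Ghr (-2.33 ± 0.19), Foxa1 (-1.69 ± 0.20) and Cebpa (-1.65 ± 0.16) the largest. Of 14 folding and export factors of secreted glycoproteins 4 fell at 30 μg/kg, beside 18.9% of all tested genes. The list median was -0.34, and the 4 were Calr (-1.03 ± 0.13), Hspa5 (-0.98 ± 0.22), Lman1 (-0.68 ± 0.08) and Pdia3 (-0.67 ± 0.10). Beside Serpina6, 6 of 8 glucocorticoid handling genes fell, among them Srd5a1 (-2.56 ± 0.18), Akr1d1 (-2.17 ± 0.35), Hsd11b1 (-1.39 ± 0.16), which regenerates active glucocorticoid, and the glucocorticoid target Tsc22d3 (-1.01 ± 0.33). At 10 μg/kg, where Serpina6 was highest, 1 of these 8 was called, Srd5a1 (-1.05 ± 0.17), beside 21.8% of all tested genes.

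Other liver programmes give the scale of these changes. Of 10 other secreted liver proteins 8 fell at 30 μg/kg (median -1.49), with Apoa1 (-3.20 ± 0.30), Apoa2 (-2.41 ± 0.30), Apoh (-2.06 ± 0.18) and Ttr (-1.54 ± 0.17) the largest. Acute-phase genes moved both ways, 8 of 15 lower and 4 higher, with Apcs (-3.62 ± 0.33), Fga (-2.94 ± 0.27) and Fgg (-2.90 ± 0.28) lower and Lcn2 higher (4.58 ± 0.60). All 6 male-biased liver genes fell, with a median of -5.52 and with Hsd3b5 (-11.66 ± 0.91), Elovl3 (-9.95 ± 0.59), Cyp4a12a (-6.23 ± 0.57) and Slco1a1 (-4.81 ± 0.41) the largest. Of 7 tested female-biased genes 5 rose, with Cyp2a4 at 8.62 ± 0.96 and Cyp2b13 at 6.13 ± 0.71. Elovl3 was also among the 3 genes nearest to Serpina1e (RMS 1.08). Hsd3b5 was among those nearest to Serpina4-ps1 (RMS 1.54), which had no close match. All 6 AhR target genes rose, with Cyp1a1 at 11.75 ± 0.27 and Cyp1b1 at 12.37 ± 0.38.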

How the data were processed

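For every liver library the deposited file holds raw counts of reads per gene from the aligner, 1 unstranded column and 1 for either strand setting. The submitters' processing notes name FastQC 0.11.7, Trimmomatic 0.39 and STAR 2.7.3a and the builds GRCm39 and mm10 without saying which served the counts. Counts in the unstranded column were fitted in R 4.3.3 with edgeR 4.0.16. Genes passed filterByExpr (minimum count 10, minimum total count 15), libraries were scaled by TMM, and edgeR's quasi-likelihood test compared dose groups in a joint fit of the 40 libraries, with Benjamini-Hochberg adjustment over 15373 genes per comparison. Log2 CPM had a prior count of 2. Single shares were compared by exact permutation tests (SciPy 1.17.1). Sequences came from GENCODE M21 and RefSeq tables, aligned with Biopython 1.88 and MAFFT 7.526. A deposited log2 table was not used. The edgeR step was tested on simulated data.

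The 10 genes and the lists were chosen with earlier results of these data known. Named genes are the 10, per list up to 4 called genes with the largest change at 30 μg/kg, and per member its 3 most alike genes of at least 10 CPM in vehicle; B430119L08Rik, Serpina3f, Serpina3g, Serpina3h and the untested genes were named after their values were seen. Some genes that this rule names are not reported here. Nothing in the labels says how the mice were housed or allotted, so p-values set differences against the variation between these mice only. In the joint edgeR fit that variation is 1 estimate per gene, shared by all 8 groups. No 2 libraries of a group were copies (lowest chi-square per degree of freedom 10.2 over 80 pairs). Alternatives were DESeq2 1.42.0, other scalings and filters, fits of 2 groups alone, the run of title numbers (1 to 27, 28 to 54), strand columns and leaving out each library.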

Additional observations from a re-analysis of the deposited data

Results flagged for a closer look

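Within groups of 5 mice, 12 of 80 sets of values (10 genes in 8 groups) had 1 mouse whose gap to its nearest neighbour took more than 0.71 of the range. For independent, normally distributed values about 1 set in 20 would. The 80 sets are not independent, as Serpina1b and Serpina1d both set apart replicate 5 at 0.3 μg/kg. The share over all tested genes was not computed, so the 12 cannot be read as an excess over chance. Replicate 5 was the highest Serpina1b mouse in 6 of the 8 groups, and stood apart in 3 of them: 7452 CPM at 0.03 μg/kg (the other 4 mice 5151 to 5450), 7507 CPM at 0.3 μg/kg (5849 to 6281) and 8512 CPM at 3 μg/kg (5675 to 6465), while replicate 4 was low at 1 μg/kg (4909 CPM against 6015 to 6358). Serpina1d had 4686 CPM in replicate 5 at 0.3 μg/kg (3921 to 4098 in the others). Replicate numbers follow accession order, and whether equal numbers share a day or cage is not given in the labels.

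Serpina1e had 1764 CPM in replicate 5 at 10 μg/kg against 83.8 to 389 in the others, and 46.6 CPM in replicate 1 at 30 μg/kg against 1.41 to 14.3. Serpina3m was low in replicate 1 at 0.3 μg/kg, at 155 CPM against 204 to 217. Serpina3n had 381 CPM in vehicle replicate 5 (248 to 284 in the others) and 828 CPM in replicate 2 at 3 μg/kg (265 to 390). Serpina4-ps1 had 409 CPM in replicate 1 at 0.03 μg/kg (47.5 to 77.9) and 243 CPM in replicate 3 at 3 μg/kg (40.8 to 93.3).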

How the results depend on the processing

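No paired analysis was possible because the replicate numbers follow accession order, so equal numbers link no animals. Counts of called members at 0.03, 0.1, 0.3 and 10 μg/kg stayed within 1.5 times the value given under the alternatives run, but at 10 μg/kg Serpina3k lost its call within either run of title numbers, Serpina1c within numbers 1 to 27 and Serpina1e within numbers 28 to 54. At 1 μg/kg the count of 1 became 2 with the 2 groups alone and 0 within title numbers 1 to 27 or 28 to 54. At 3 μg/kg the count of 2 became 1 with no filter on low counts or with the strand-specific column, 0 within either run, and 1 to 2 when a library was left out. Serpina6 lost its calls at 1 μg/kg (adjusted p = 0.165 and 0.339) and 3 μg/kg (0.0830 and 0.0649) within the runs. On scaling to total counts the count at 3 μg/kg stayed 2 with Serpina3n in place of Serpina3m. At 30 μg/kg it was 6 of 6 features with the Serpina1 copies summed and 9 to 10 without single libraries, and for 30 against 10 μg/kg it was 3 within title numbers 1 to 27. Fewer samples enter the runs; the cause of the other shifts was not tested.

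Scaling to total counts moved the median of all genes by 0.22 at 10 and 0.52 at 30 μg/kg (log2). Under it the log2 fold changes at 30 μg/kg were -0.61 for Serpina1b, -0.91 for Serpina1d and 1.26 for Serpina6, and no member changed direction at 30 μg/kg. The directions that turned were of values that were not called: Serpina1b at 10 μg/kg was -0.053 and Serpina1d -0.11 in title numbers 28 to 54, Serpina3n at 10 μg/kg was 0.072 in numbers 1 to 27 and Serpina4-ps1 at 3 μg/kg was -0.47 in numbers 28 to 54. Without single libraries these ranged from -0.11 to 0.11, -0.11 to 0.13, -0.34 to -0.076 and -0.29 to 0.63.

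The dose slope of Serpina1b passed with relative log expression (RLE) size factors (-0.069, adjusted p = 0.0495) and that of Serpina3n with run as a covariate (-0.11, adjusted p = 0.0471). Without single libraries the slopes ranged from -0.074 to -0.051 for Serpina1b, -0.091 to -0.062 for Serpina1d and -0.12 to -0.085 for Serpina3n, and 8 such fits passed. The share of gene counts at 0.3 μg/kg changed sign without single libraries, from -0.143 to 0.0635 percentage points. The gain in Serpina1 share at 30 μg/kg was 7.44 percentage points for Serpina1d and 4.44 for Serpina1a with the strand-specific column, and 7.49 and 4.36 with both strand columns summed (an alternative chosen after seeing the data). At 10 μg/kg Serpina1a gained 1.72 and 1.70. Without single libraries the gain of Serpina1d at 30 μg/kg was 3.32 to 6.03.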
